A study of Bos taurus with 54 samples.

Results

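Cells present fragments of their own proteins to CD8 T cells on MHC class I molecules, which consist of a heavy chain and beta-2-microglobulin. Peptides cut by the proteasome are pumped into the endoplasmic reticulum by the transporter TAP, trimmed there by aminopeptidases and fitted into the heavy chain with the help of tapasin. Interferons raise the transcription of much of this pathway, and NLRC5 acts in the nucleus as a transactivator of class I genes.

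The genes described here were B2M, TAP1, TAP2, TAPBP, NLRC5 and ERAP1, which were taken by their symbols from the 32637 genes listed for every library, and all 6 passed the filter on low counts in both kits. All 15 calves were male Holsteins in rooms with a controlled climate, and each gave whole blood. The thermoneutral control was sampled at 6AM and the heat stress group at 6PM after 12 h of heat, so heat and time of day cannot be told apart. Red cells were lysed before RNA extraction, and the same RNA was read as 3′ mRNA libraries made with 2 kits, SMART-Seq v4 from Takara and QuantSeq from Lexogen. Of the 54 libraries, 13 per kit were thermoneutral controls and 13 per kit were heat stress samples, and 12 animals in each kit had both times. The groups follow the title and treatment label of each library, and the study's design table differs from them. With calves taken in order of animal number, the table gives the 2 times exchanged for all 5 calves with an incomplete set (animals 7, 15, 20, 23 and 29). The study's methods also count more samples before heat than after, where the labels give fewer. Its reported genes changed by heat were more often up than down in both kits, as the labels give here with TMM. With total counts the labels gave 1301 higher and 2184 lower in Takara. The study's counts come from the same libraries, so they cannot tell which source is right. Which source is right is not known. If the labels were the ones exchanged, every direction given here would turn. The remaining library of each kit came from animal 20, which has 1 time only, and it was left out of every comparison, while the other 4 animals were kept as labelled. Reads counted on genes ranged from 5140595 to 20699030 per Takara library and from 4516761 to 58521751 per Lexogen library. The highest value belonged to the Lexogen heat stress library of animal 15. Levels are given as counts scaled to a common library size (CPM) after TMM scaling within each kit, which assumes that most genes do not change.

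TAP1, TAP2 and TAPBP share a chromosome. In the ARS-UCD2.0 assembly TAP2 (gene 281586) lies on chromosome 23 from 7138820 to 7146579, TAP1 (gene 524959) from 7177596 to 7186308 and TAPBP (gene 504335) from 7473471 to 7483390. TAP1 stands between the genes of the immunoproteasome subunits PSMB8 and PSMB9, with 1185 bases to PSMB8 and 144 bases to PSMB9. B2M (gene 280729) lies on chromosome 10 from 103095506 to 103103791, NLRC5 (gene 782441) on chromosome 18 from 25009893 to 25103235, and ERAP1 (gene 514617) on chromosome 7 from 96168784 to 96298585. ERAP1 is followed after 5675 bases by ERAP2 and overlaps a long non-coding RNA gene. Reads on the antisense strand made up 8.70% of the stranded ERAP1 counts in Takara and 16.6% in Lexogen, and at most 1.41% for any other member in either kit, so ERAP1 was the member whose unstranded counts were least certain.

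B2M was the only member that passed the test, and only in Takara. It did not pass there with the animal as a block (adjusted p = 0.114), and it passed in 8 of 26 fits with single libraries left out. In that kit 1 of the 6 was called (adjusted p under 0.05, higher after heat stress), against 18.4% of all 12620 tested genes that were higher and 10.5% that were lower. In Lexogen 0 of the 6 passed edgeR's test, against 5.09% of 11108 genes that were higher and 0.459% that were lower. At an unadjusted p under 0.05 the counts were 2 members in Takara and 1 in Lexogen, and DESeq2 called 2 and 0. The median log2 fold change of the 6 genes was 0.18 in Takara, beside -0.05 over all tested genes, and 0.03 in Lexogen, beside -0.08.

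The choice of scaling moved the estimates of all members. With the total count as library size in place of TMM, the Takara median over all genes was -0.27 on the log2 scale, and the split of calls turned from 2325 higher and 1321 lower to 1301 higher and 2184 lower. Set against the median of all genes in the same fit, B2M lay 0.36 above it with TMM and 0.32 above it with total counts. NLRC5 and TAP2 each lay 0.37 and 0.34 above it. TAP1, TAPBP and ERAP1 lay closer to that median, at 0.11, 0.10 and 0.11 with TMM and at 0.11, 0.08 and 0.17 with total counts.

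**Figure D1:**
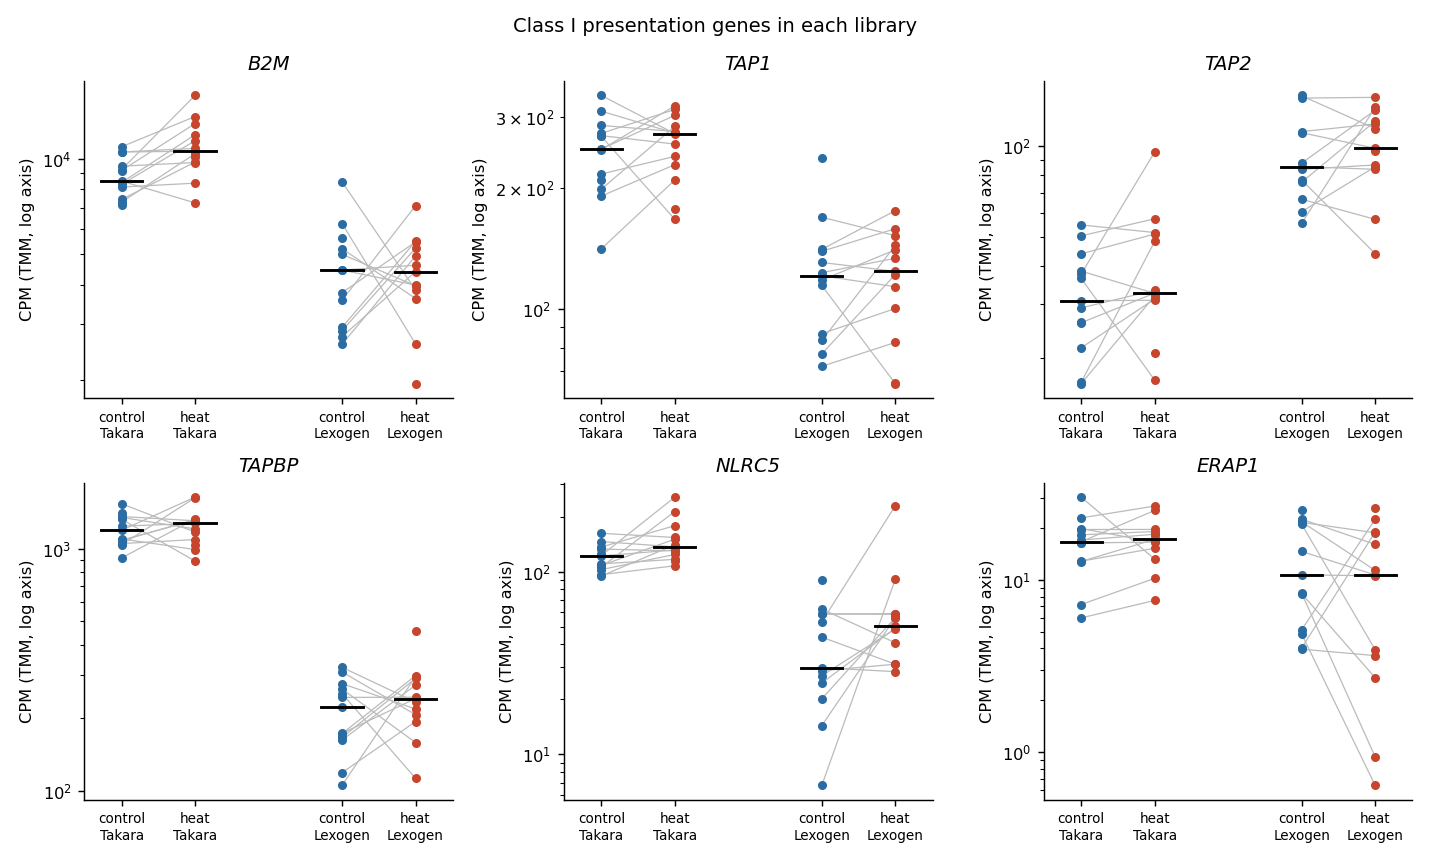
Level of each gene in every library in CPM (log axis), with blue points for thermoneutral controls, red points for heat stress, grey lines joining the 2 libraries of an animal and black bars at the medians, 13 libraries per group. The groups overlapped for every gene in both kits, and the median of B2M in Takara went from 8489 to 10550 CPM and that of NLRC5 in Lexogen from 29.81 to 50.17 CPM.

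B2M encodes the light chain that every classical class I molecule needs to reach the cell surface. In Takara its level ran from 7130 over a median of 8489 to 10900 CPM in the controls and from 7248 over 10550 to 15820 CPM after heat stress. The ranges overlapped, with 5 heat stress libraries (animals 7, 18, 32, 36 and 40) above the highest control. The neutrophil markers described below summed to 87140, 70480, 15310, 86810 and 113600 CPM in these libraries, against at most 21490 CPM in a control. Animals 15 and 16 had neutrophil sums of 105800 and 67540 CPM after heat stress with B2M at 9748 and 10360 CPM, within the control range. Their own controls were at 7428 and 7288 CPM of B2M, so within these animals it rose by 0.39 and 0.51 on the log2 scale. Whether B2M followed the neutrophil markers was not tested. The log2 fold change was 0.31 (SE 0.12, 95% interval 0.07 to 0.55, edgeR adjusted p = 0.0454), a 1.24-fold difference, and the level was higher after heat stress in 11 of 12 animals. The size of the change varied widely between animals, from -0.23 in animal 3 to 0.78 in animal 18, and animals 12, 14, 19 and 41 were within 0.04 of no change. After heat stress the neutrophil markers summed to 4204 CPM in animal 3 and to 19890, 27060, 17230 and 12220 CPM in animals 12, 14, 19 and 41. Animal 32, with a sum of 15310 CPM, had a B2M change of 0.46. With the animal as a block the log2 fold change was 0.28 (adjusted p = 0.114), where 25% of genes and 0 members passed in either direction. With total counts it was 0.05 (adjusted p = 0.731), and 6 of 12 animals were higher.

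The Lexogen libraries gave a different picture for B2M. Control levels ran from 2595 over 4446 to 8443 CPM and heat stress levels from 1949 over 4397 to 7095 CPM. The ranges overlapped, and only the heat stress library of animal 15 lay outside the control range, below it. The log2 fold change was -0.02 (SE 0.19, 95% interval -0.40 to 0.37, adjusted p = 0.981), with 7 of 12 animals higher, and the block on animal gave 0.12. This interval includes the Takara value. With the animal as a block 0 members passed in Lexogen, where 0.568% of genes passed in either direction, 63 genes in place of 616. The test of the difference between the kits gave 0.18 (Takara minus Lexogen, SE 0.18, adjusted p = 1).

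The sample numbers were split at their largest gap into 2 runs, which hold different animals. Within each run the control and heat stress samples carry separate stretches of numbers. For B2M in Lexogen the runs had different directions. In run 1 it was higher after heat stress in 6 of 7 animals and in run 2 in 1 of 5, and the log2 fold changes were 0.51 (SE 0.23) and -0.58 (SE 0.21), neither of which passed the test. Their adjusted p values were 0.305 and 0.298. The difference between the runs was -1.14 (SE 0.33, unadjusted p = 0.00146), which did not pass after adjustment over all genes (adjusted p = 0.257), where 0.0180% of genes passed. In Takara the runs gave B2M nearly the same value, 0.32 (SE 0.17) and 0.31 (SE 0.20), neither of them past the test within a run (adjusted p = 0.186 and 0.339). The run by time test passed for 2.58% of all genes in Takara and for 0 of the 6 members in either kit, with 1 member at an unadjusted p under 0.05 in each.

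**Figure D2:**
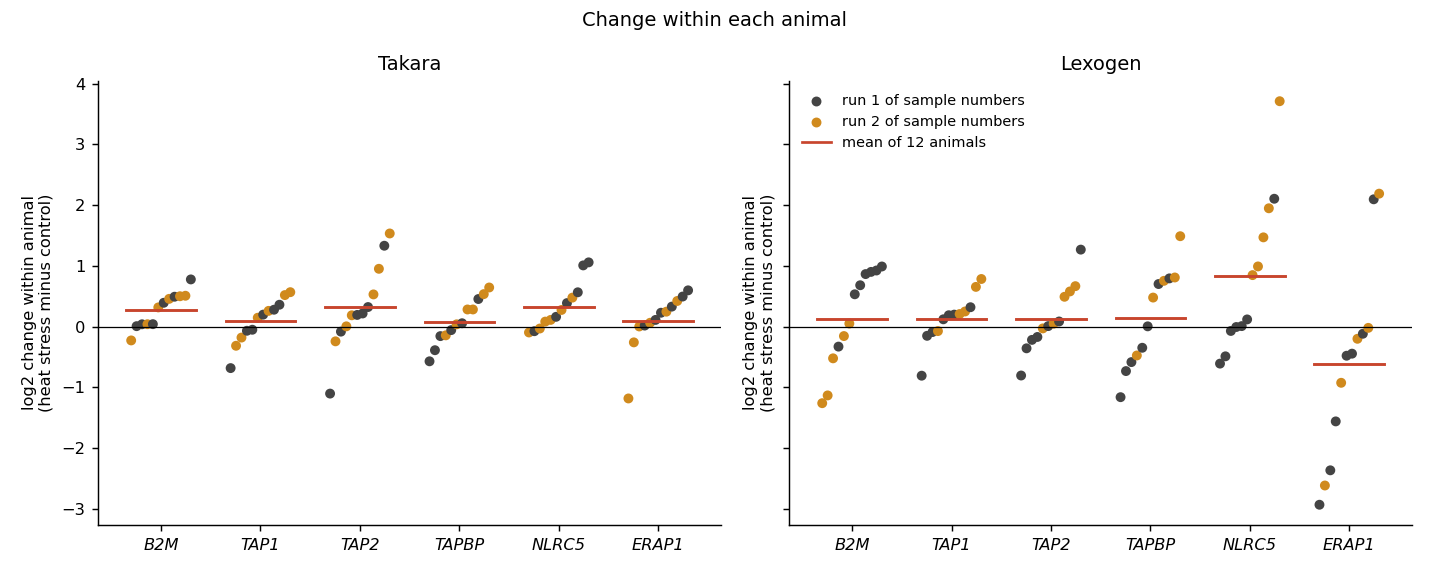
Change of each gene within an animal, heat stress minus control on the log2 scale, for the 12 animals with both times in each kit, coloured by run of sample numbers, with the mean as a red line. B2M was higher in 11 of 12 animals in Takara, and in Lexogen the run 2 animals lie mostly below 0 for B2M and above 0 for NLRC5.

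TAP1 and TAP2 pair to form the peptide transporter. TAP1 in Takara ran from 141.0 over 249.6 to 339.1 CPM in the controls and from 166.9 over 272.4 to 319.5 CPM after heat stress. The heat stress range lay within the control range, and the lowest heat stress library was that of animal 15, whose change of -0.68 was the largest drop. The log2 fold change was 0.05 (SE 0.13, 95% interval -0.21 to 0.31, adjusted p = 0.781), with 7 of 12 animals higher, and it was -0.16 with total counts. In Lexogen TAP1 ran from 71.97 over 120.8 to 237.6 CPM and from 65.18 over 123.9 to 175.4 CPM, and the log2 fold change was -0.03 (SE 0.19, adjusted p = 0.964) and 0.12 with the animal as a block. The groups overlapped almost entirely, and the Takara interval spans 0.867-fold to 1.24-fold.

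TAP2 was measured with far fewer Takara counts than TAP1. Its Takara level ran from 16.42 over 30.83 to 54.80 CPM in the controls and from 16.88 over 32.63 to 95.28 CPM after heat stress. Animals 7 and 18 were above the highest control, and the medians differed little. TAP2 had a log2 fold change of 0.32 (SE 0.22, 95% interval -0.14 to 0.78, adjusted p = 0.295), with 9 of 12 animals higher and single changes from -1.10 in animal 15 to 1.53 in animal 32. The value was 0.14 without the heat stress library of animal 18 and 0.07 with total counts. In Lexogen it was 0.07 (SE 0.19, adjusted p = 0.910), 0.11 with the animal as a block and 0.00 with total counts, between controls of 55.42 to 146.5 CPM and heat stress libraries of 44.06 to 144.4 CPM. The 2 transporter genes moved in the same direction in 8 of 12 Takara animals, against 10 for B2M with TAP2 and for TAP1 with NLRC5. After centring on time their log2 levels correlated with r = 0.78 over 26 Takara libraries, the highest value among the pairs of members there. Over 26 Lexogen libraries r was 0.44, where TAP1 with NLRC5 was highest at 0.55.

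TAPBP encodes tapasin, which holds the empty heavy chain next to the transporter. In Takara it ran from 913.9 over 1190 to 1531 CPM in the controls and from 888.0 over 1269 to 1630 CPM after heat stress. Only animals 36 and 40 exceeded the controls, and animal 18 lay below them. Heat stress over control gave a log2 fold change of 0.05 (SE 0.11, 95% interval -0.17 to 0.26, adjusted p = 0.769), with 7 of 12 animals higher, and it was -0.19 with total counts and 0.00 without the heat stress library of animal 40. Within the runs it was -0.16 (SE 0.15) and 0.31 (SE 0.17), with 2 of 6 and 5 of 6 animals higher, and the run difference of 0.43 had an unadjusted p of 0.0419 (adjusted p = 0.278). In Lexogen the level ran from 105.1 over 221.5 to 322.9 CPM and from 112.3 over 240.0 to 458.2 CPM, with a log2 fold change of 0.21 (SE 0.19, adjusted p = 0.647). It was 0.09 without the heat stress library of animal 15, the highest, and 0.13 with the animal as a block. Of the 6 members TAPBP had the smallest unadjusted p in the test of the kit difference, 0.0266 for -0.38 (95% interval -0.72 to -0.05), with an adjusted p of 1.

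ERAP1 trims peptides in the endoplasmic reticulum to the length that class I binds. In Takara its level ran from 6.01 over 16.66 to 30.24 CPM in the controls and from 7.59 over 17.19 to 26.84 CPM after heat stress. The heat stress libraries all lay within the control range, and animal 18 was lowest at both times. Its log2 fold change was 0.06 (SE 0.20, 95% interval -0.36 to 0.47, adjusted p = 0.857) and -0.11 with total counts. With TMM 10 of 12 animals were higher and animal 36 was lower by the most (-1.18), and with total counts 6 of 12 were higher. In Lexogen the values spread from 0.640 over 10.68 to 26.20 CPM after heat stress and from 3.95 over 10.70 to 25.55 CPM in the controls, with 2 of 12 animals higher. The lowest Lexogen library held 3 ERAP1 reads, and the log2 fold change of -0.23 (SE 0.47, 95% interval -1.18 to 0.72, adjusted p = 0.873) had the widest interval of any member. It was -0.67 with the animal as a block, -0.58 with sense counts and -0.41 without the heat stress library of animal 15.

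NLRC5 is the regulator of the group, driving transcription of class I heavy chains, B2M and the transporter. In Takara it ran from 94.72 over 121.8 to 162.0 CPM in the controls and from 107.6 over 136.5 to 255.5 CPM after heat stress. Animals 12, 18 and 40 were above all controls and the rest overlapped with them. The log2 fold change was 0.32 (SE 0.13, 95% interval 0.06 to 0.58), nearly that of B2M, but the adjusted p was 0.0565 and the test was not passed. The level was higher in 9 of 12 animals, and animals 18 and 40 showed the largest changes, 1.01 and 1.06. With DESeq2 the same libraries gave a log2 fold change of 0.34 and an adjusted p of 0.0432, and with total counts edgeR gave 0.07 (adjusted p = 0.683), so the call depended on the tool and the size on the scaling.

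Lexogen gave the largest estimate of any member for NLRC5 and also a wide error. Controls ran from 6.77 over 29.81 to 90.25 CPM and heat stress libraries from 28.35 over 50.17 to 229.4 CPM. Heat stress exceeded the control median in 12 of 13 libraries, yet only animals 12 and 36 exceeded every control. The estimate on the log2 scale was 0.68 (SE 0.33, 95% interval 0.01 to 1.35, unadjusted p = 0.0477, adjusted p = 0.288), with 8 of 12 animals higher. In run 2 all 5 animals were higher and in run 1 it was 3 of 7, with log2 fold changes of 1.03 (SE 0.50) and 0.46 (SE 0.40) and no run difference past the test (adjusted p = 0.938). The largest single change, 3.71 in animal 36, started from the lowest control library.

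**Figure D3:**
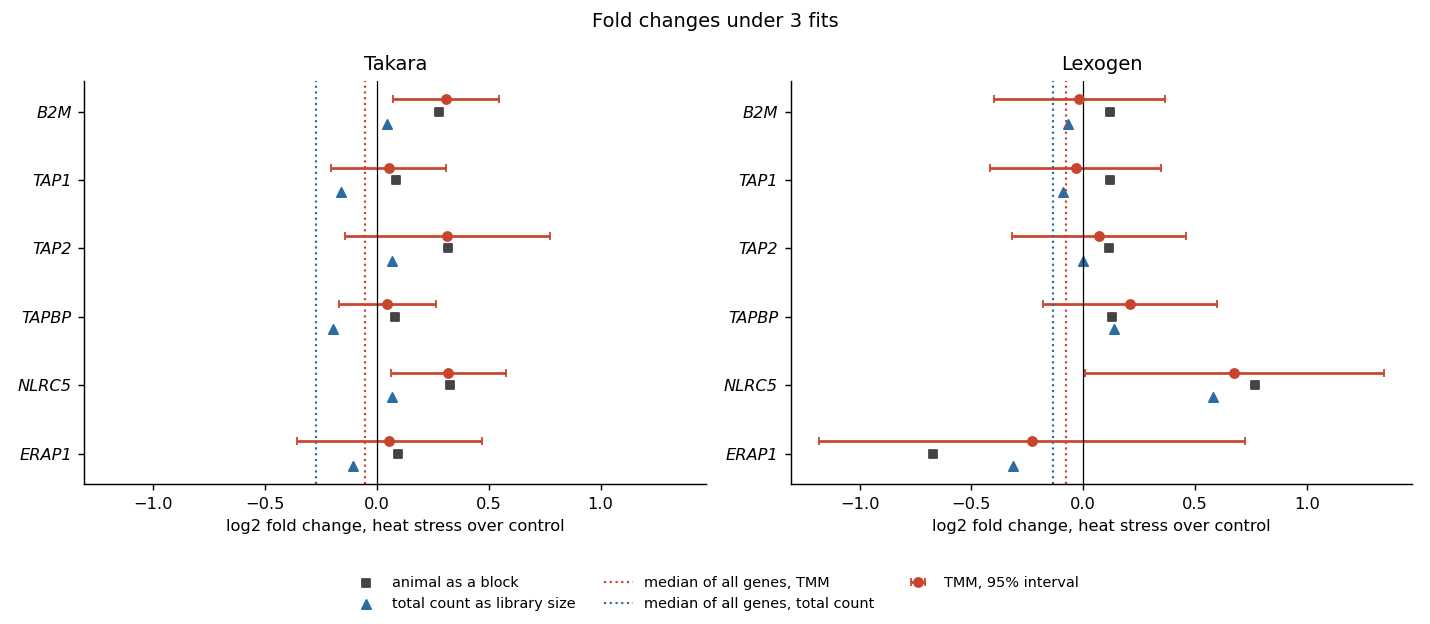
Log2 fold change of each gene, heat stress over control, from the TMM fit with 95% intervals (red circles) and, without intervals, from the fit with the animal as a block (grey squares) and the fit with the total count as library size (blue triangles), and dotted lines at the median of all genes. In Takara the total counts shift every gene and the median to the left, and with TMM the intervals of B2M and NLRC5 lie above 0.

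In the 24 RNA samples read with both kits, without animal 20, the kits disagreed on the level of every gene, with levels given as CPM of the total count because TMM was computed within each kit. B2M averaged 9801 ± 1384 CPM in Takara and 4458 ± 1379 in Lexogen (SD, n = 24), TAP1 253.9 ± 66.99 and 124.6 ± 38.94, and TAPBP 1243 ± 252.4 and 230.9 ± 69.70. These 3 genes were higher in Takara in 24 of 24 RNA samples, and NLRC5 was in 23. TAP2 was the exception, with 36.55 ± 15.75 CPM in Takara and 99.94 ± 32.88 in Lexogen and a higher Lexogen value in all 24, by 2.85-fold on the geometric mean. TAPBP differed most in the other direction, by 5.52-fold. ERAP1 was higher in Takara in 18 of 24, with single ratios from 0.285 to 25.

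The spread between control libraries was wider in Lexogen for 5 of the members by a clear margin. The coefficient of variation of the controls was 14.2% in Takara and 37.7% in Lexogen for B2M, 14.9% and 32.8% for TAPBP and 16.7% and 59.3% for NLRC5. For TAP2 the values were 36.7% and 33.7%. Of the 10 animals with both times in both kits, the direction of change was the same in both kits in 8 for TAP1, 7 for NLRC5, 6 each for B2M and TAPBP, 5 for TAP2 and 3 for ERAP1. The test of kit by time passed for 0 of 13354 genes with edgeR (0%), with 526 genes at an unadjusted p under 0.05, so no kit difference in the response was detectable for any member.

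**Figure D4:**
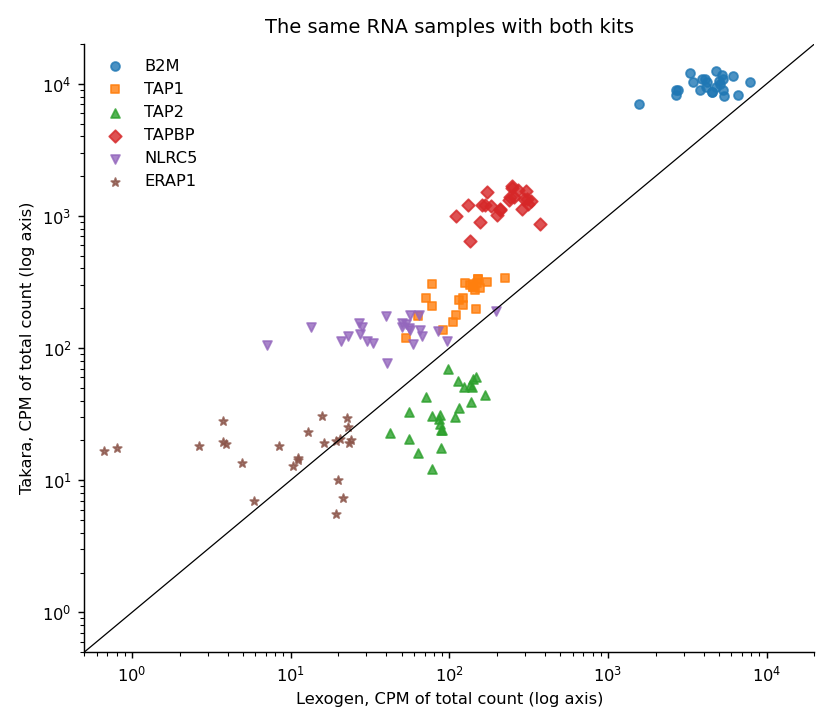
Level of each gene in the same RNA sample with Lexogen (x axis) and Takara (y axis), in CPM of the total count on log axes, 24 RNA samples per gene, with the line of equality. TAP2 is the gene whose 24 points all lie below the line.

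Genes of class I heavy chains and related proteins did not pass the test either. Of 12 heavy chain and related names 7 were listed, all were tested in both kits, and 0 passed in either, with 0 at an unadjusted p under 0.05 and 0 by DESeq2. BOLA averaged 1006 ± 489.8 CPM in Takara controls and 1304 ± 619.4 after heat stress (SD, n = 13), with a log2 fold change of 0.37 (SE 0.39, adjusted p = 0.482). JSP.1 had 0.32 (SE 0.43, adjusted p = 0.594) and BOLA-NC1 0.09 (SE 0.40, adjusted p = 0.889), which was -0.14 with total counts. With the animal as a block 0 of the 7 passed in either kit, beside 25% and 0.568% of genes. In that Takara fit BOLA was at 0.31 (adjusted p = 0.0821), higher in 9 of 12 animals. JSP.1 was at 0.45 (adjusted p = 0.0868), higher in 10, and BOLA-NC1 at 0.05 (adjusted p = 0.758). In Lexogen the block gave BOLA 0.38 (adjusted p = 0.549) and JSP.1 0.30 (adjusted p = 0.518), each higher in 6 of 12. Animal 12 differed from the rest in BOLA at both times. The 2 Takara libraries of animal 12 held 30.72 and 39.33 CPM of BOLA, against 684.1 to 2583 CPM in the other 24, and 1173 and 1350 CPM of JSP.1, above all of those. In Lexogen its BOLA levels were 5.11 and 57.36 CPM, against 402.2 to 2327 CPM. Its JSP.1 levels there were 962.4 CPM in the control, below the 1241 CPM of another control, and 2562 CPM after heat stress. These loci are near-identical copies that differ between haplotypes, so how reads were split between them is uncertain.

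The other loading partners did not pass the test. Of 11 genes for peptide loading and quality control in the endoplasmic reticulum 0 passed in either kit, with 1 at an unadjusted p under 0.05 in each and 0 by DESeq2, and their median log2 fold change in Takara was -0.02. Calreticulin (CALR) had -0.13 (SE 0.13), the disulphide isomerase PDIA3 0.15 (SE 0.10) and ERAP2, the neighbour and partner of ERAP1, 0.27 (SE 0.15, adjusted p = 0.168). Tapasin's relative TAPBPL had 0.15 (SE 0.17), and with total counts PDIA3, ERAP2 and TAPBPL were at -0.07, -0.02 and -0.07.

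Some of the genes that make the peptides fell in Takara. Of 7 genes of the immunoproteasome and its activator 4 fell and 0 rose, beside 10.5% and 18.4% of all genes. Their median log2 fold change was -0.32, beside -0.05 over all genes. PSMB9, a catalytic subunit whose gene stands next to TAP1, went from 935.1 ± 158.4 to 683.4 ± 215.4 CPM (SD, n = 13), a log2 fold change of -0.45 (SE 0.14, adjusted p = 0.0203), and was lower in 10 of 12 animals. The subunit PSMB10 had -0.41 (SE 0.16, adjusted p = 0.0470, lower in 8 of 12) and the activator subunits PSME1 and PSME2 had -0.32 (SE 0.11, adjusted p = 0.0304, lower in 9) and -0.40 (SE 0.15, adjusted p = 0.0491, lower in 10). PSMB8, on the other side of TAP1, had -0.04 (SE 0.12, adjusted p = 0.815), the activator PSME3 0.14 (SE 0.10, higher in 10 of 12 animals) and the assembly factor POMP 0.08 (SE 0.11), of which PSME3 and POMP were at -0.09 and -0.15 with total counts. All 4 calls held with the animal as a block and with total counts, and the values within the runs were -0.55 and -0.33 for PSMB9 and -0.30 and -0.32 for PSME1. With single Takara libraries left out, PSMB9 passed in 26 of 26 fits, PSME1 in 20 and PSMB10 and PSME2 in 8 each, and DESeq2 called PSMB9 and PSME1 only. In Lexogen 0 of 7 passed, with 1 at an unadjusted p under 0.05 and 0 by DESeq2, and the median log2 fold change was -0.31. PSMB10, PSME1 and PSME2 were at -0.37, -0.31 and -0.41 in Lexogen (adjusted p = 0.646, 0.497 and 0.329). PSMB9 was at 0.03 in Lexogen (SE 0.36, adjusted p = 0.980) with TMM, -0.08 with total counts and -0.32 when the animal was a block. Within the runs it was at -0.17 and 0.33. In the same Takara libraries the summed T cell markers, described below, had medians of 1503 CPM in the controls and 1104 CPM after heat stress.

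The receptors and kinases that carry interferon signals toward class I genes were the part of the pathway that rose most. In Takara 9 of 12 tested genes rose and 0 fell, beside 18.4% and 10.5% of all genes. Their median log2 fold change was 0.87, beside -0.05 over all genes, and 0.54 with total counts, beside -0.27. Of the receptor chains, IFNAR2 had 1.37 (SE 0.30, adjusted p = 0.00148), IFNGR1 1.16 (SE 0.27, adjusted p = 0.0025), IFNAR1 1.14 (SE 0.26, adjusted p = 0.00256) and IFNGR2 0.92 (SE 0.32, adjusted p = 0.0313), higher in 10, 8, 11 and 11 of 12 animals. The kinases JAK1, JAK2 and TYK2 had 0.55, 0.88 and 0.85 (0.25, 0.54 and 0.50 with total counts), and the feedback inhibitors SOCS1 and SOCS3 0.84 and 1.04. With total counts 8 of the 9 remained and IFNGR2 did not (adjusted p = 0.120). The libraries in which this list summed highest also had high sums of the neutrophil markers described below. The list summed to 5013, 4982 and 4592 CPM in the heat stress libraries of animals 40, 18 and 15, whose neutrophil markers summed to 113600, 70480 and 105800 CPM, and 1502 CPM in that of animal 3, where they summed to 4204 CPM. In Lexogen 3 of 12 rose, IFNAR1 (1.03), IFNAR2 (1.00) and SOCS3 (1.02), beside 5.09% of all genes. There 0 of 12 passed with the animal as a block, while DESeq2 called 4. Interferon gamma (IFNG) had too few reads to be tested in either kit and 0 in every Lexogen library compared.

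Regulators of class I promoters had calls in both directions in Takara. Of 14 genes 4 rose and 1 fell, beside 18.4% and 10.5% of all genes. ATF1 had 0.61 (SE 0.14, adjusted p = 0.00284) and was higher in 12 of 12 animals, RELA had 0.48, CREB1 0.44 and IRF2 0.34, while the histone methyltransferase EHMT2 had -0.86 (SE 0.21, adjusted p = 0.00436) at a mean control level of 4.08 CPM. With single Takara libraries left out, ATF1, RELA and EHMT2 passed in 26 of 26 fits, CREB1 in 22 and IRF2 in 8. With total counts ATF1 and EHMT2 were the genes of the list that still passed. CREB1 did not pass with the animal as a block (adjusted p = 0.0746), and CIITA (-0.61, adjusted p = 0.0489) and IRF1 (0.50, adjusted p = 0.0389) did. RFX5, which recruits NLRC5 to class I promoters, had -0.28 (SE 0.14, adjusted p = 0.121). In Lexogen 0 of 13 passed, with 1 at an unadjusted p under 0.05 and 0 by DESeq2.

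**Figure D5:**
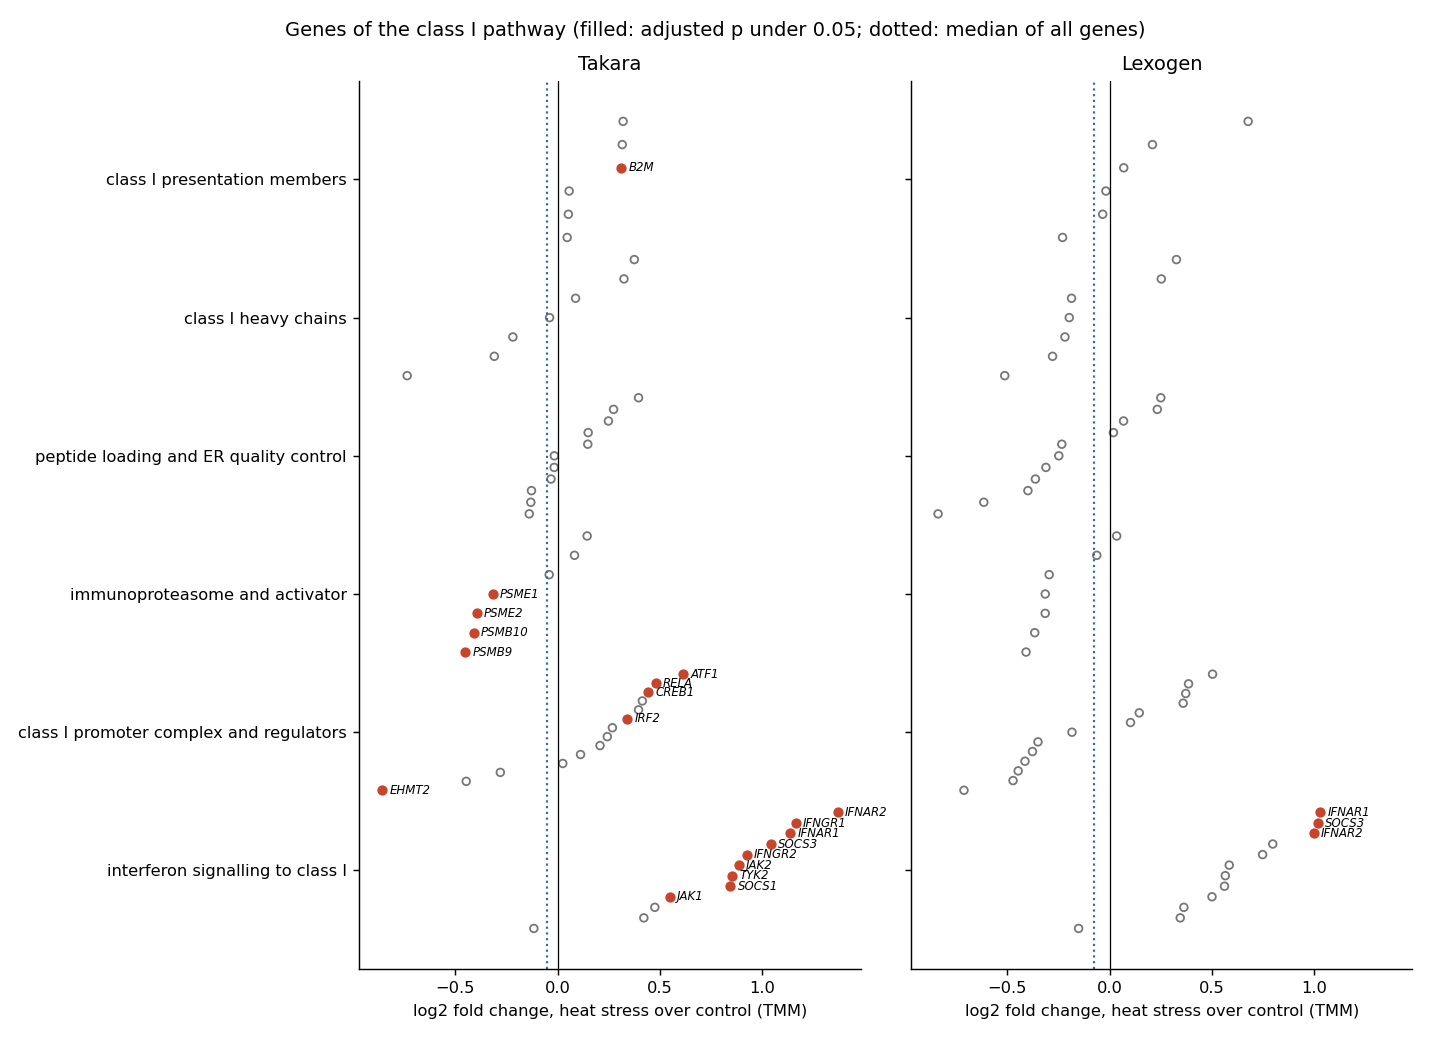
Log2 fold change of every tested gene of 6 lists, heat stress over control, with filled points for an adjusted p under 0.05, open points for the rest and a dotted line at the median of all genes. In Takara the called interferon signalling genes lie to the right, the called immunoproteasome genes to the left and all members but B2M are open.

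The blood itself differed between the times, and in whole blood fewer cells of a type and less RNA per cell cannot be told apart. Of 10 neutrophil markers 8 rose in Takara, beside 18.4% of all genes, and 7 in Lexogen, beside 5.09%. In Lexogen 0 of these markers passed with the animal as a block. Their summed level in Takara ran from 4646 over 12660 to 21490 CPM in the controls and from 4204 over 44320 to 113600 CPM after heat stress, with S100A12 as the most abundant gene, and in Lexogen from 1547 over 3914 to 7506 and from 1860 over 11420 to 34670 CPM. Some heat stress libraries stayed within the control range and others were far above it. Of 13 T cell markers 5 fell in Takara with TMM, beside 10.5% of all genes, and 8 with total counts. They were led in abundance by CD3D, with summed levels from 1265 over 1503 to 2319 and from 783.5 over 1104 to 1870 CPM. With single Takara libraries left out, CD247 passed in 26 of 26 fits, CD3E in 19, CD3D in 18 and CD3G and CD8B in 13 each. In Lexogen 0 of 12 tested T cell markers passed, with 0 at an unadjusted p under 0.05 and 0 by DESeq2, and the summed medians were 606.2 and 488.2 CPM.

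Markers of B cells, NK cells, monocytes, platelets and red cells were counted in the same way. Of 8 B cell markers 1 fell in Takara (BLK), beside 10.5% of all genes, 4 with the animal as a block and 0 with total counts, and the summed median went from 853.1 to 609.1 CPM, with MS4A1 as the most abundant. BLK passed in 7 of 26 fits with single Takara libraries left out. In Lexogen 0 of 8 passed, with 0 at an unadjusted p under 0.05 and 0 by DESeq2. Of 8 NK and cytotoxic markers 1 rose in Takara and 1 of 7 in Lexogen, beside 18.4% and 5.09% of all genes. It was NCR1 in both (in Lexogen not with the animal as a block, adjusted p = 0.272), and the summed medians were 237.1 and 263.8 CPM in Takara. Of 7 tested monocyte markers 3 rose in Takara (CD163, CD68 and VCAN), beside 18.4% of all genes, with summed medians of 504.0 and 710.6 CPM. With single Takara libraries left out, CD163 passed in 26 of 26 fits and CD68 and VCAN in 10 each. In Lexogen 0 of 7 rose, with 3 at an unadjusted p under 0.05 and 0 by DESeq2. With the animal as a block 1 monocyte marker rose and 1 fell in Takara, and with total counts 1 rose (CD163). Platelet markers, led by PF4, and erythroid markers, led by HBB, had 0 of 6 and 0 of 3 past the test in both kits, and DESeq2 called 0 of these. The platelet gene TREML1 (-0.41 in Takara) passed as lower with the animal as a block (-0.48, adjusted p = 0.0407) and with total counts (-0.61, adjusted p = 0.0326). GP9, which edgeR did not test on all Takara libraries for its low counts, was called higher there by DESeq2 (1.59, adjusted p = 0.0157). It passed in 14 of 26 fits with single libraries left out. At an unadjusted p under 0.05 there was 1 erythroid marker in Lexogen and 0 otherwise. The erythroid gene HBA1 had 0 reads in every library compared. The part of these cell markers in the values of the class I genes was not tested.

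Genes whose levels followed a member most closely were sought over the 26 Takara libraries after subtracting the mean of each time, as a description without a test. Of the 18 pairs of a member and a gene named, 11 were the same without that subtraction. For B2M they were UBE2D3 (r = 0.88), TMEM50A (0.84) and RAP1B (0.84), with r from 0.52 to 0.64 over the 26 Lexogen libraries. For TAP1 they were RNF114 (0.91), DHRS3 (0.86) and FCGR3A (0.83), with r from 0.45 to 0.67 in Lexogen. RNF114 also followed TAP2 (0.85), together with OSTC (0.88) and MRPS18C (0.82), but in Lexogen OSTC and MRPS18C had r of 0.04 and 0.01. FCGR3A was counted in the list of neutrophil markers above, of which 8 of 10 rose in Takara. It was not among the 8, with a Takara log2 fold change of -0.05 (edgeR adjusted p = 0.925).

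For TAPBP the closest genes were MOSPD3 (0.86), ACADVL (0.80) and SEC16A (0.78), with r of 0.29, 0.51 and 0.54 in Lexogen. NLRC5 and ERAP1 had less close partners. For NLRC5 they were TMEM140 (0.66), TMT1A (0.65) and CUL4B (0.65), with r of 0.54, -0.25 and 0.36 in Lexogen. For ERAP1 they were AIMP1 (0.68), RWDD1 (0.65) and KLHDC10 (0.64), whose r in Lexogen were -0.61, -0.37 and -0.07.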

How the data were processed

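The deposited values are counts of reads per gene, made by the authors before deposit: per the submitters' processing notes, reads were trimmed with Trimmomatic 0.39, mapped to ARS-UCD2.0 with STAR 2.7.10b and checked with FastQC 0.11.9 and MultiQC 1.14. The unstranded counts were used, and the reads carry no molecular identifiers. Of the 32637 gene IDs 30271 matched the annotation, and 0 libraries had identical counts. Each kit was filtered (filterByExpr), scaled by TMM and tested over all genes in R 4.3.3 with edgeR 4.0.16 quasi-likelihood fits (limma 3.58.1 loaded with it), with DESeq2 1.42.0 beside it. Calls needed an adjusted p under 0.05, intervals are 95%, and log2 CPM used a prior count of 2. The median SE of a log2 fold change was 0.185 in Takara and 0.417 in Lexogen. Libraries of the same animal were taken as pairs, and their time-centred log2 levels correlated with a median r of 0.232 in Takara (11 of 12 above 0.1) and 0.021 in Lexogen (2 of 12). Times follow the library labels. The study's design table gives them exchanged for all 5 animals with an incomplete set (7, 15, 20, 23 and 29, matched by order of animal number), so the doubt covers the labelling of the whole series. The study reported a majority of genes up with heat, the way the labels run with TMM. That majority comes from the same libraries, so it cannot tell which source is right. The count of samples before and after heat in the study's methods runs against the labels. Of the 5 animals only animal 20 (1 library per kit) was left out. Named genes are the members, the 3 genes most like each and genes of the pathway and marker lists. The members and lists were chosen with earlier results of these data known. The code was tested on simulated data. The result of 1 list gene is not reported here.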

Additional observations from a re-analysis of the deposited data

Results flagged for a closer look

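The study's design table gives the 2 times exchanged against the labels for animals 7, 15, 20, 23 and 29, the 5 with an incomplete set. Of these animal 20, labelled 6PM and heat stress and left out of the comparisons, had levels above every thermoneutral control library of the same kit in 4 cases. In Takara these were B2M at 15440 CPM (highest control 10900) and NLRC5 at 264.6 CPM (highest control 162.0), the latter also above all 13 heat stress libraries (highest 255.5). In Lexogen they were TAPBP at 324.1 CPM (highest control 322.9) and NLRC5 at 148.1 CPM (highest control 90.25). B2M of animal 20 in Lexogen went the other way, at 2036 CPM and below every control (lowest 2595). Its remaining member levels lay within the control ranges.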

How the results depend on the processing

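In Takara 1 member passed, and 0 passed with the animal as a block, without a filter on low counts, with total counts as library size, with animal 20 as a control, within run 1, within run 2, in the RNA samples with both kits, and with block and total counts together (a setting chosen after seeing the data). With DESeq2 and with animal 20 as heat stress 2 passed, B2M and NLRC5. B2M in Takara had adjusted p from 0.0144 to 0.885 over 12 settings. Leaving out single Takara libraries, also chosen after seeing the data, gave 0 to 2 members, and B2M kept its call in 8 of 26 fits (log2 0.25 to 0.35, adjusted p from 0.0166 to 0.0952). The direction turned in Takara with total counts for TAP1 (-0.16), TAPBP (-0.19) and ERAP1 (-0.105), with block and total counts for the same genes (-0.1652, -0.1714 and -0.155), within run 1 for TAP1 (-0.0101) and TAPBP (-0.1636), within run 2 for ERAP1 (-0.1361), and for ERAP1 with sense counts (-0.0079), animal 20 as heat stress (-0.0066) and the RNA samples with both kits (-0.0065). With single libraries left out TAP1 ran from -0.0068 to 0.0906, TAP2 from 0.14 to 0.40, TAPBP from 0.00 to 0.08 and ERAP1 from -0.0194 to 0.1483. In Lexogen B2M turned with the block (0.1219), DESeq2 (0.0027), animal 20 as a control (0.0377), run 1 (0.5148), run as a covariate (0.0448), without the heat stress library of animal 15 (0.0302) and with block and total counts (0.0881). TAP1 in Lexogen turned with the block (0.1194), within run 2 (0.0801), without that library (0.0036) and with block and total counts (0.0844), and TAP2 within run 1 (-0.0193). None of the turned values passed the test. Over all genes, Takara calls went from 3646 to 931 within run 2 and to 0 with animal 20 as a control (3804 at an unadjusted p under 0.05). Lexogen calls went from 616 to 63 with the block, 1006 with DESeq2, 3273 without the filter, 2 with animal 20 as a control, 402 within run 1 and 0 within run 2 (1275 at an unadjusted p under 0.05). The run by time test gave 165 genes in place of 325 in Takara and 1 in place of 2 in Lexogen with total counts. The causes were not tested.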

Other observations

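The library of animal 20 has no group here. In Takara it held 15440 CPM of B2M, 307.9 of TAP1, 31.15 of TAP2, 1316 of TAPBP, 264.6 of NLRC5 and 7.14 of ERAP1. In Lexogen it held 2036 CPM of B2M, below all 13 controls, 114.8 of TAP1, 86.80 of TAP2, 324.1 of TAPBP, 148.1 of NLRC5 and 7.08 of ERAP1.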
